A study of Mus musculus with 8 samples.

Results

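The 10 genes described here are repressors and output factors of the circadian clock, together with Clock, in cultured mouse tendon stem cells. They were chosen by symbol (Per1, Per2, Per3, Cry1, Cry2, Nr1d1, Nr1d2, Dbp, Tef and Clock), and each symbol was found in the expression table, giving 10 of its 19301 genes. All 10 passed the filter on low values, so none of them was left without a test.

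The circadian clock is a loop of transcription factors in which CLOCK and BMAL1 (gene Arntl) switch on the genes of their own repressors, the PER and CRY proteins, from E-box sequences. REV-ERB receptors (Nr1d1, Nr1d2) and ROR receptors act in opposite directions on a second element found in Arntl and other genes, and the PAR bZIP factors DBP, TEF and HLF carry the rhythm to output genes through D-boxes. Fibroblasts and tendon cells hold such clocks, and in culture the clocks of single cells can run out of step unless a medium change, serum, glucocorticoid or temperature sets them together.

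The libraries came from primary tendon stem cells (TSCs), obtained by collagenase digestion of mouse patellar tendon, and were made with a stranded mRNA kit. The HFHG group (high fat, high glucose) received raised glucose with 300 µM palmitic acid, a saturated fatty acid, and the LG group received 5.5 mM glucose with DMSO and no palmitic acid. Both groups were kept in their medium for 4 days, with 4 libraries in each group, and the comparison asks how the combined treatment changes the transcripts of these cells. Glucose and palmitic acid were changed together, so their effects cannot be told apart. The hour of harvest, the hour of the last medium change and any synchronisation of the clocks are not given in the sources used here. With a single harvest per culture, a shift of phase, a change of amplitude and a change of mean level cannot be told apart for any of the 10 genes. The labels call the replicates biological but do not say whether they are separate mice or separate cultures, so p-values measure only the spread between these samples.

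Values are FPKM, read fragments counted on a gene and scaled by its length and by the total of the library. The HFHG libraries held 37362725, 35385644, 35996958 and 36544763 reads, and the LG libraries held 34308108, 36308533, 35437050 and 35591854 reads. LG replicate 4 stood apart from the other libraries of its group. The variance between 2 libraries, as a multiple of what counting alone gives, was 3.42 to 3.95 for the 3 pairs of LG libraries without it and 7.88 to 11.4 for the 3 pairs with it, against 3.49 to 4.72 for the 6 pairs of HFHG libraries. Among the 10 clock genes, LG replicate 4 was the lowest LG library for 6 (Per1, Per2, Per3, Nr1d2, Tef and Clock) and the highest for 3 (Cry2, Nr1d1 and Dbp). The counts of called clock genes and the log2 fold change of each of the 10 genes are therefore given with and without it.

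The label was checked against marker genes. The 9 tendon markers summed to 2511 ± 23.7 FPKM in HFHG and 1618 ± 14.8 FPKM in LG (mean ± SD, n = 4), and Dcn was the most abundant of them in LG. Scx, a transcription factor of tendon progenitors, reached 2.27 ± 0.558 FPKM in HFHG against 1.45 ± 0.336 in LG. Tnmd, a marker of mature tendon cells, was at 1.1 ± 0.0908 and 0.614 ± 0.298 FPKM. The qPCR of the study ran the other way, with Scx and Tnmd lower in HFHG medium, and found Mkx not significantly changed. The 7 mesenchymal stromal markers, led by Ly6a, summed to 1101 ± 12.8 FPKM in HFHG and 721 ± 13.5 FPKM in LG. Markers of macrophages were also present in all 8 libraries. The 9 macrophage markers summed to 1804, 1780, 1772 and 1755 FPKM in HFHG and to 1917, 1934, 1951 and 2003 FPKM in LG, with Lyz2 the most abundant at 1637 ± 19.4 and 1765 ± 32.6 FPKM. None of the 9 was at 0 in any library, and 8 of the 9 passed the test described below, 1 of them higher in HFHG (Cd14) and 7 lower, or 8 lower without LG replicate 4. Endothelial markers summed to 1.58 ± 0.0494 and 2.02 ± 0.123 FPKM, skeletal muscle markers to 1.27 ± 0.416 and 3.64 ± 0.380 FPKM, and the adipocyte, cartilage and bone lists to under 1 FPKM on average in each group. The muscle sum differed through Acta1 (0.904 FPKM in HFHG, 3.38 in LG), while Pax7, Des and Myh3 had higher means in HFHG and Myod1 was near 0. The endothelial sum differed mainly through Vwf (0.393 FPKM in HFHG, 1.04 in LG). Tek (0.800 and 0.547 FPKM) and Pecam1 had higher means in HFHG. Of the 9 tendon markers 7 were called higher and 1 lower (Mkx), and of the 7 stromal markers 6 higher and 1 lower (Cd44). Of all tested genes 64.8% were called, 34% higher and 30.8% lower, and these marker counts are read beside those shares. These markers moved along the same split of samples as the clock genes, and their part in the results below was not tested. In bulk samples such as these, fewer cells of a type and less RNA per cell cannot be told apart.

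Of the 10 clock genes, 7 were higher in HFHG (Per1, Per2, Per3, Cry2, Nr1d1, Dbp and Tef), Nr1d2 was lower, and Cry1 and Clock did not pass the test. The test was limma on log2(FPKM + 0.1) with Benjamini-Hochberg adjustment over the 11710 genes that reached 0.5 FPKM in at least 4 libraries, and a gene is called where its adjusted p is under 0.05. The 8 called genes of 10 stand beside 7592 of all 11710 tested genes, or 64.8%, so being called is common in this table. In the direction of HFHG, 7 of the 10 were called, beside 34% of all tested genes, and in the other direction 1 of the 10, beside 30.8%. The balance of directions over all tested genes depends on the scaling, with 3983 higher and 3609 lower as reported, 4682 and 3002 after rescaling to the same sum, and 3606 and 4024 with quantile normalization. The count of clock genes called higher was 7 under both of these scalings. The groups did not overlap for 8 of the 10 clock genes, and the same held for 59.2% of all tested genes. By the threshold of the study, a fold change over 2 with an unadjusted p under 0.05, 1 of the 10 passed (Per3), beside 5.33% of all tested genes. The median log2 fold change was 0.69 over the 10 clock genes and 0.02 over all tested genes. The 10 genes were chosen with earlier results of these data known, so their shared direction may partly reflect that choice. Without LG replicate 4, 9 of the 10 clock genes were called, 7 higher and 2 lower, Clock being the gene added, and 7519 of all tested genes were called.

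**Figure D1:**
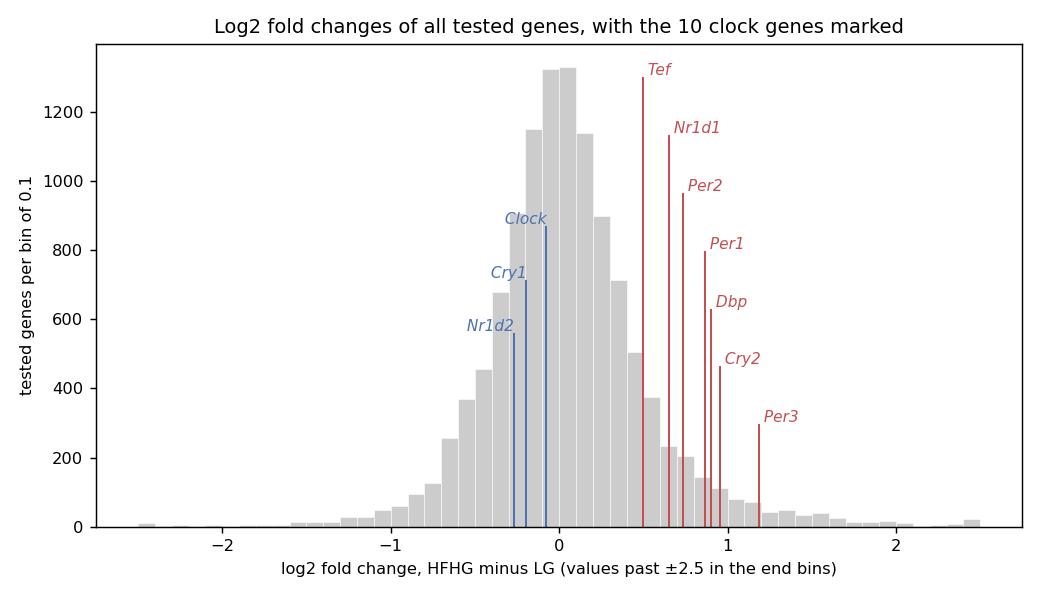
The number of tested genes (y axis) in bins of the log2 fold change, HFHG minus LG (x axis), is shown in grey for 11710 genes, with a line for each of the 10 clock genes (red above 0, blue below 0). The lines of 7 genes stand on the right flank, from 0.50 (Tef) to 1.18 (Per3), while Clock, Cry1 and Nr1d2 stand between -0.27 and -0.08.

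**Figure D2:**
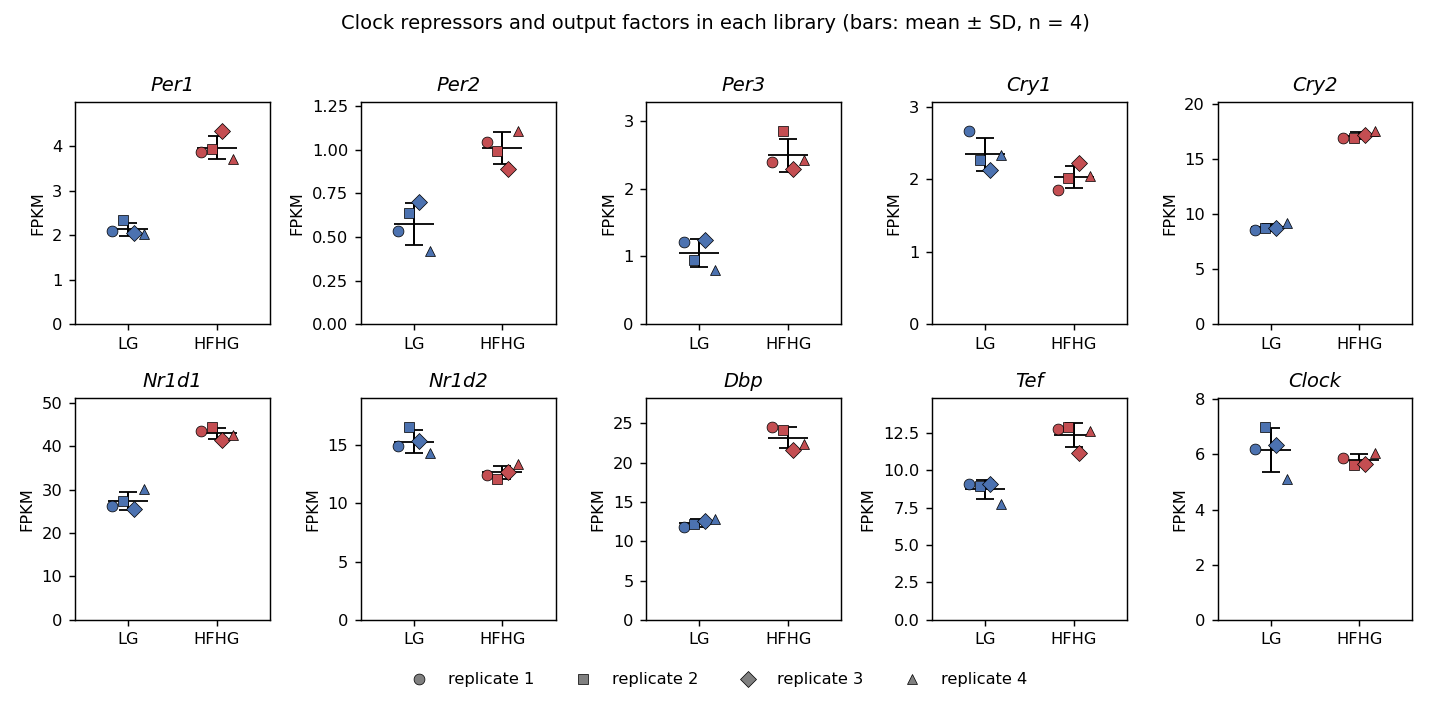
FPKM (y axis, from 0) of each of the 10 clock genes in the 4 LG (blue) and 4 HFHG (red) libraries, with a symbol for each replicate number and bars for the mean ± SD. The groups overlap only for Cry1 and Clock, and LG replicate 4 (triangle) is the lowest LG library for 6 of the 10.

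The period genes encode the PER proteins, which enter the nucleus with the CRY proteins and hold back CLOCK and BMAL1. Per1 (NCBI gene 18626, chr11:69095217-69109960, plus strand, in GRCm38) had 3.88, 3.93, 4.34 and 3.71 FPKM in the HFHG libraries and 2.09, 2.35, 2.05 and 2.03 FPKM in the LG libraries. Every HFHG library was above every LG library, and HFHG replicate 3 was the highest. The means were 3.96 ± 0.265 and 2.13 ± 0.148 FPKM (SD, n = 4), a ratio of 1.86, and the log2 fold change was 0.87 (SE 0.08, 95% confidence interval 0.70 to 1.03, limma adjusted p = 5.3e-07, higher in 4 of 4 HFHG libraries). Without LG replicate 4 the log2 fold change of Per1 was 0.85. Between 607 and 1323 reads stood behind each value of Per1.

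Per2 (NCBI gene 18627, chr1:91415982-91459324, minus strand) was the lowest of the 10 genes, with 1.04, 0.994, 0.890 and 1.11 FPKM in HFHG and 0.537, 0.638, 0.700 and 0.420 FPKM in LG. The groups stood apart, with the lowest HFHG library above LG replicate 3, the highest of LG, while LG replicate 4 was the lowest and fell under the minimum of 0.5 FPKM. The log2 fold change was 0.73 (SE 0.15, 95% confidence interval 0.41 to 1.05, limma adjusted p = 0.000789, higher in 4 of 4 HFHG libraries), and it was 0.61 without LG replicate 4. A pseudocount of 1 in place of 0.1 gave 0.35 with the call kept, and with a minimum of 1 FPKM Per2 was not tested. The values of Per2 rested on 91 to 246 reads, the fewest among the 10 genes, and its interval was the widest.

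Per3 (NCBI gene 18628, chr4:151003652-151044665, minus strand) had 2.40, 2.85, 2.29 and 2.42 FPKM in HFHG and 1.22, 0.948, 1.24 and 0.806 FPKM in LG. All 4 HFHG libraries were above all 4 LG libraries, and within LG replicates 1 and 3 were above replicates 2 and 4. The means were 2.49 ± 0.246 and 1.05 ± 0.210 FPKM (SD, n = 4), a ratio of 2.37, and no other of the 10 genes had a log2 fold change as far from 0 (1.18, SE 0.13, 95% confidence interval 0.90 to 1.47, limma adjusted p = 4.9e-06, higher in 4 of 4 HFHG libraries). Of all tested genes, 96.5% had a log2 fold change closer to 0 than that of Per3. The value was 1.07 without LG replicate 4 and 0.77 with a pseudocount of 1, and the call was kept in both. With that pseudocount Per3 was no longer the farthest from 0. Cry2 was then at 0.89, and Dbp was not under 0.86 in any alternative. The longer Camta1 spans Per3 on the same strand and shares 0 exon bases with it.

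The cryptochromes are the partners of the PER proteins and the direct repressors of CLOCK and BMAL1 in the nucleus, and here Cry1 and Cry2 differed from each other. Cry2 (NCBI gene 12953, chr2:92403646-92434043, minus strand) had 16.9, 16.9, 17.1 and 17.5 FPKM in HFHG and 8.49, 8.71, 8.69 and 9.21 FPKM in LG. The libraries of each group lay close together and the groups were far apart. The means were 17.1 ± 0.291 and 8.77 ± 0.304 FPKM (SD, n = 4), a ratio of 1.95, with a log2 fold change of 0.95 (SE 0.04, 95% confidence interval 0.87 to 1.04, limma adjusted p = 4.58e-10, higher in 4 of 4 HFHG libraries). It was 0.98 without LG replicate 4, and 1206 to 2647 reads stood behind each value. A noncoding gene on the opposite strand, D930015M05Rik, shares 295 exon bases with Cry2 and is not in the table. The strand setting of the counting is not given in the sources used here, so reads from such a gene may be counted in the level of Cry2.

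Cry1 (NCBI gene 12952, chr10:85131700-85185064, minus strand) had 1.86, 2.03, 2.23 and 2.04 FPKM in HFHG and 2.67, 2.27, 2.13 and 2.33 FPKM in LG. The groups overlapped through HFHG replicate 3, which was above LG replicate 3, and LG replicate 1 was the highest of the 8. The log2 fold change was -0.19 (SE 0.09, 95% confidence interval -0.39 to 0.00, limma adjusted p = 0.0742), with 3 of the 4 HFHG libraries under every LG library, and it was -0.20 without LG replicate 4. Cry1 passed the threshold with quantile normalization (-0.31, adjusted p = 0.00824) and without LG replicate 3 (-0.24, adjusted p = 0.0469), and over its 18 alternatives the adjusted p ran from 0.00824 to 0.218. Within each library the level of Cry2 over that of Cry1 was 9.10, 8.32, 7.67 and 8.56 in HFHG and 3.18, 3.83, 4.08 and 3.95 in LG. This ratio did not overlap between the groups, at 8.42 ± 0.592 and 3.76 ± 0.398 (SD, n = 4).

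The promoters of Per1, Per3, Cry1 and Cry2 are printed because these repressors are classical targets of the E-box and D-box loops and 3 of the 4 rose together. Each run holds 300 bases around a start site, most of them before it, from RefSeq (GRCm38.p6), 5′ to 3′ on the strand of the gene. Per1 has 2 such windows in the table, of which the one shown is chr11:69098699-69098998 (plus strand), and the others are Per3 chr4:151044616-151044915 (minus strand), Cry1 chr10:85185005-85185304 (minus strand) and Cry2 chr2:92434020-92434319 (minus strand). Capitals mark the E-box CACGTG, the related E'-box CACGTT, the D-box TTATGTAA and the cyclic AMP response element TGACGTCA. An E'-box that lies on the other strand reads as AACGTG in the run.
Per1: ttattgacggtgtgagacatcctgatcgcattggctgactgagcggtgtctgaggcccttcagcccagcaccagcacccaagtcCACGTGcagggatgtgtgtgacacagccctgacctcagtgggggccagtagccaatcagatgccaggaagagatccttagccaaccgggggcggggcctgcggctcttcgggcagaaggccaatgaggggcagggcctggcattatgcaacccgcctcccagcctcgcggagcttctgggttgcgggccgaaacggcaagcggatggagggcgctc
Per3: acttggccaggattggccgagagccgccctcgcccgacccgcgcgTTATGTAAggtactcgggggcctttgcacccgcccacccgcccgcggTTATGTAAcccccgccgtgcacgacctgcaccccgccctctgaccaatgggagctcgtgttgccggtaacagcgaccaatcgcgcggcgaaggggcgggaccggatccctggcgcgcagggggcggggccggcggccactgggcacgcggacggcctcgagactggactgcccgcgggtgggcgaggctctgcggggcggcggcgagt
Cry1: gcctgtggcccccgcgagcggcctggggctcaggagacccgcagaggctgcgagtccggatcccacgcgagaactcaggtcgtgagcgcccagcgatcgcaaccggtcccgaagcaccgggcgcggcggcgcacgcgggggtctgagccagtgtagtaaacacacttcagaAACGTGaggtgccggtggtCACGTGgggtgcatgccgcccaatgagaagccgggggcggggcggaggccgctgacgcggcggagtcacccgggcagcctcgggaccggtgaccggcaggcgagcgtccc
Cry2: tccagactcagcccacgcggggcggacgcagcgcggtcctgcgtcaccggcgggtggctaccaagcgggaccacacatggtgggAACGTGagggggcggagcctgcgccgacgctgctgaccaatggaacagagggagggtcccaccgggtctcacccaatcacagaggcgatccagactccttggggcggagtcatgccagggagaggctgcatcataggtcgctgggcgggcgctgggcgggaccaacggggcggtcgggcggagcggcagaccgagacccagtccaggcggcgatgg
The window of Per1 holds 1 E-box, whose first letter lies at -166 from the start site, and that of Cry1 holds 1 E-box at -60 and 1 E'-box at -79. Cry2 holds 1 E'-box at -166. Per3 holds 2 copies of the D-box TTATGTAA, a motif found in 0.938% of all 32851 promoter windows of 27025 genes. The E-box was found in 7.15% and the E'-box in 4.68% of all windows, each searched on both strands.

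Windows were found for 9 of the 10 genes, 13 in all, and Per2 had no entry. The E-box CACGTG was in 4 of the 13 windows, in Per1, Cry1 and both windows of Tef. The E'-box CACGTT was in 3, those of Cry1, Cry2 and Nr1d1, and TTATGTAA was in the window of Per3 alone. A second D-box form, TTACGTAA (0.119% of all windows), and the response element TGACGTCA (1.79%) were in none of the 13. The shorter TGACG, which lies inside TGACGTCA and so counts that motif too, was in both windows of Per1 and in those of Cry1 and Cry2, and in 20.8% of all windows. The core of the ROR element, AGGTCA (16.3% of all windows), was in windows of Per1, Nr1d2 and Clock. A match says only that these letters are in the window.

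The REV-ERB receptors repress Arntl and other genes and also bind heme, and their transcripts parted in these data. Nr1d1 (NCBI gene 217166, chr11:98767932-98775333, minus strand), for REV-ERB alpha, had 43.5, 44.5, 41.3 and 42.5 FPKM in HFHG and 26.2, 27.3, 25.6 and 30.2 FPKM in LG. Every HFHG library was above LG replicate 4, which was the highest of LG. The means were 43.0 ± 1.34 and 27.3 ± 2.03 FPKM (SD, n = 4), a ratio of 1.57, and the log2 fold change was 0.65 (SE 0.05, 95% confidence interval 0.55 to 0.76, limma adjusted p = 9.35e-08, higher in 4 of 4 HFHG libraries). It was 0.70 without LG replicate 4. Nr1d1 shares 263 exon bases with Thra, the gene of a thyroid hormone receptor on the opposite strand (chr11:98740638-98769006). Thra had 25.8, 26.3, 25.8 and 25 FPKM in HFHG and 16.0, 13.9, 15.3 and 15.8 FPKM in LG, so the neighbours were higher in the same libraries. How far reads of the shared bases were split between Nr1d1 and Thra is uncertain.

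The promoter of Nr1d1 is shown because this receptor links the E-box loop to the ROR loop, at chr11:98775328-98775627 on the minus strand (RefSeq, GRCm38.p6), with the E'-box in capitals.
Nr1d1: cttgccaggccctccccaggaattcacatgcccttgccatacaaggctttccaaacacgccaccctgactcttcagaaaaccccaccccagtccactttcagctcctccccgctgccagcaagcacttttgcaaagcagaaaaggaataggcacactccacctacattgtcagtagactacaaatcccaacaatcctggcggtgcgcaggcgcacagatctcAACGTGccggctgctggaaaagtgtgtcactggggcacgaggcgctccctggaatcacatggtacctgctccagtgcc
Its single match lies at -28, written as AACGTG because the letters CACGTT are on the other strand.

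Nr1d2 (NCBI gene 353187, chr14:18204054-18239127, minus strand), for REV-ERB beta, had 12.5, 12.1, 12.7 and 13.4 FPKM in HFHG and 14.9, 16.6, 15.4 and 14.3 FPKM in LG. All 4 HFHG libraries were below all 4 LG libraries, with the smallest gap between HFHG replicate 4 and LG replicate 4. The means were 12.7 ± 0.554 and 15.3 ± 0.967 FPKM (SD, n = 4), a ratio of 0.828, and the log2 fold change was -0.27 (SE 0.05, 95% confidence interval -0.38 to -0.16, limma adjusted p = 0.000472, lower in 4 of 4 HFHG libraries). Without LG replicate 4 it was -0.30. Among all tested genes, 53.4% had a log2 fold change closer to 0 than that of Nr1d2. The level of Nr1d1 over that of Nr1d2 was 3.49, 3.67, 3.26 and 3.17 in the HFHG libraries and 1.76, 1.64, 1.66 and 2.11 in the LG libraries. This ratio was 3.4 ± 0.225 and 1.79 ± 0.216 (SD, n = 4) and did not overlap between the groups.

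DBP and TEF are PAR bZIP factors, which activate output genes from D-boxes, and DBP is itself a strongly rhythmic target of CLOCK and BMAL1 in many organs. Dbp (NCBI gene 13170, chr7:45705088-45710203, plus strand) had 24.6, 24.1, 21.7 and 22.4 FPKM in HFHG and 11.7, 12.2, 12.6 and 12.9 FPKM in LG. The groups were far apart, and HFHG replicates 1 and 2 were above replicates 3 and 4. The means were 23.2 ± 1.39 and 12.4 ± 0.490 FPKM (SD, n = 4), a ratio of 1.88, and the log2 fold change was 0.90 (SE 0.05, 95% confidence interval 0.80 to 1.01, limma adjusted p = 4.64e-09, higher in 4 of 4 HFHG libraries). It was 0.92 without LG replicate 4. Dbp shares 539 exon bases with Sphk2, a sphingosine kinase gene on the opposite strand. Sphk2 had 10.2, 9.98, 10.1 and 9.62 FPKM in HFHG and 10.1, 10.4, 11.6 and 11.8 FPKM in LG, which overlapped between the groups. How far reads of the shared bases were split between Dbp and Sphk2 is uncertain.

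Tef (NCBI gene 21685, chr15:81802421-81826863, plus strand) had 12.8, 12.9, 11.2 and 12.6 FPKM in HFHG and 9.10, 8.92, 9.09 and 7.75 FPKM in LG. The groups did not overlap, and the low libraries within them were HFHG replicate 3 and LG replicate 4. The log2 fold change was 0.50 (SE 0.06, 95% confidence interval 0.36 to 0.64, limma adjusted p = 1.72e-05, higher in 4 of 4 HFHG libraries), and it was 0.45 without LG replicate 4. An antisense gene, Gm17597, shares 193 exon bases with Tef and is not in the table. The level of Dbp over that of Tef was 1.92, 1.87, 1.94 and 1.78 in HFHG and 1.29, 1.37, 1.38 and 1.66 in LG. The ratio did not overlap between the groups, though LG replicate 4 came near HFHG replicate 4.

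Hlf, the remaining PAR bZIP gene, is not among the 10 and lay under the filter, with 0.559, 0.395, 0.589 and 0.544 FPKM in HFHG and 0.123, 0.213, 0.318 and 0.208 FPKM in LG. It was higher in all 4 HFHG libraries, like Dbp and Tef. With 70 ways to arrange the libraries, the exact permutation test (two-sided) gave Hlf p = 0.0286, the smallest value possible, and p = 0.0571 without LG replicate 1. The groups of Hlf still did not overlap without that library, where only 35 arrangements remain. Between 25 and 126 reads stood behind these values, a depth at which the size of the difference is loosely set.

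CLOCK is the DNA-binding partner of BMAL1, and its transcript cycles little in most tissues. Clock (NCBI gene 12753, chr5:76209868-76304792, minus strand) had 5.86, 5.63, 5.64 and 6.07 FPKM in HFHG and 6.20, 7.01, 6.36 and 5.10 FPKM in LG. The groups overlapped because LG replicate 4 was below every HFHG library, whereas the other 3 LG libraries were above every HFHG library. The log2 fold change was -0.08 (SE 0.08, 95% confidence interval -0.26 to 0.10, limma adjusted p = 0.427). Without LG replicate 4 it was -0.16 and Clock was called lower (limma adjusted p = 0.0298, 4 of 4 HFHG libraries under the 3 LG libraries). This was the only one of its 18 alternatives in which Clock was called, with a limma adjusted p up to 0.889 in the others. With each library left out in turn, its log2 fold change ran from -0.16 to -0.0137.

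The order of the levels, compared per length in FPKM, changed between the groups. In LG the means ran from Nr1d1 (27.3) through Nr1d2 (15.3), Dbp (12.4), Cry2 (8.77), Tef (8.72), Clock (6.16), Cry1 (2.35), Per1 (2.13) and Per3 (1.05) to Per2 (0.574). The neighbours Cry2 and Tef overlapped between LG libraries, as did Cry1 and Per1. In HFHG the means ran from Nr1d1 (43.0) through Dbp (23.2), Cry2 (17.1), Nr1d2 (12.7), Tef (12.4), Clock (5.80), Per1 (3.96), Per3 (2.49) and Cry1 (2.04) to Per2 (1.01), and there Nr1d2 and Tef overlapped. Nr1d2 thus stood ahead of Cry2 in LG and behind it in HFHG, while its place against Dbp in LG depends on the lengths given below. Among all tested genes, 79.5% had a lower LG mean than Nr1d1 and 3.42% a lower LG mean than Per2. The length behind the FPKM was longer than the longest annotated transcript for each of the 10 genes. As a ratio the excess was largest for Per1 (8474 against 4671 bases), Tef (6127 against 4403), Dbp (2481 against 1837) and Cry1 (3976 against 3026). The place of these 4 genes in the order is therefore uncertain. Scaled to the longest transcripts, the LG orders of Per1 against Cry1, of Dbp against Nr1d2 and of Tef against Cry2 would turn. In HFHG the orders of Tef against Nr1d2 and of Per1 against Clock would turn. The ratio of a gene between groups is not touched.

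**Figure D3:**
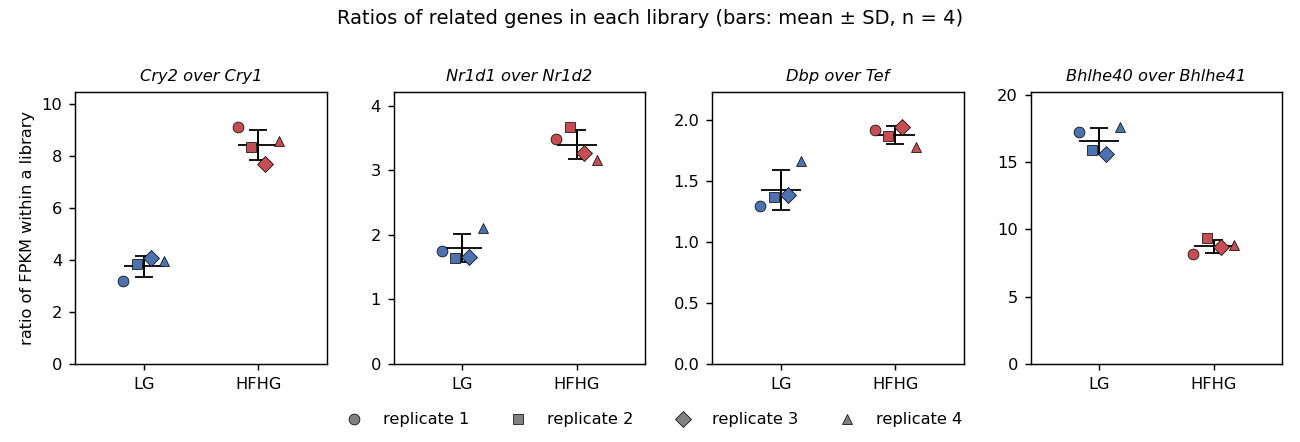
Ratio of the FPKM of related genes within each library (y axis, from 0) in the 4 LG (blue) and 4 HFHG (red) libraries, with a symbol for each replicate number and bars for the mean ± SD. Cry2 over Cry1, Nr1d1 over Nr1d2 and Dbp over Tef were higher in every HFHG library and Bhlhe40 over Bhlhe41 was lower.

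The Per genes were set beside each other in the same way. Per1 over Per2 was 3.97 ± 0.646 in HFHG and 3.83 ± 0.784 in LG (SD, n = 4), and Per3 over Per2 was 2.48 ± 0.303 and 1.86 ± 0.327. Both ratios overlapped between the groups.

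Patterns like that of Per3 were looked for among all tested genes by the distance of centred log2 values over the 8 libraries. Per3 was taken because its log2 fold change as reported was the farthest from 0 of the 10. The nearest 5 genes were Tbx3 (distance 0.268, log2 fold change 1.12), Mogat2 (0.301, 1.29), Ccdc9b (0.339, 1.19), Cish (0.38, 1.09) and 9930111J21Rik1 (0.384, 1.18). These genes were chosen for their likeness over the same 8 values, so sharing the group difference of Per3 is no separate result. With a pseudocount of 1, Cish moved to 0.63 and 9930111J21Rik1 to 0.50. The gene 9930111J21Rik1 reached 0.5 FPKM in the 4 HFHG libraries alone, so it was tested only through the group where it was high.

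The other genes of the clock were read from lists of its activators and further repressors, its modulators and its outputs. Of 43 listed genes, 42 were in the table and 37 were tested, and 25 of the 37 were called, 11 higher and 14 lower in HFHG, beside the 64.8% of all tested genes. Without LG replicate 4, 24 of the 37 were called, 9 higher and 15 lower, and after rescaling to the same sum 25 were called, 13 higher and 12 lower, so the balance of directions is not firm. Their median log2 fold change was -0.02, against 0.69 for the 10 clock genes. These lists and the 10 genes were chosen with earlier results of these data known, so this contrast may partly reflect the choice. Among 11 activators and further repressors, 8 were tested, with 2 called higher (Arntl2 and Bhlhe41) and 3 lower, beside 34% and 30.8% of all tested genes. Leaving out LG replicate 4, or any 1 of 5 other libraries (HFHG replicates 1, 2 and 4 and LG replicates 1 and 3), gave 1 called higher and 3 lower.

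Arntl, the gene of BMAL1 and a direct target of REV-ERB repression, had 1.34, 1.43, 1.31 and 1.36 FPKM in HFHG and 1.85, 1.84, 1.92 and 1.96 FPKM in LG. It was lower in every HFHG library, opposite to Nr1d1 and on the same side as Nr1d2. Its log2 fold change was -0.45 (SE 0.08, limma adjusted p = 0.000304, lower in 4 of 4 HFHG libraries), and -0.29 with a pseudocount of 1. The length behind the FPKM of Arntl, 19267 bases, is far above its longest annotated transcript of 3995 bases, so the level per length is understated and was not set beside that of Clock. Its paralogue Arntl2 had 2.19, 2.53, 2.01 and 2.30 FPKM in HFHG and 1.93, 2.06, 2.0 and 1.51 FPKM in LG. The groups of Arntl2 overlapped, and its call (log2 fold change 0.26, limma adjusted p = 0.0493, 3 of 4 HFHG libraries above every LG library) was kept in 6 of 18 alternatives, with an adjusted p from 0.0257 to 0.264 and a value of 0.17 without LG replicate 4. The partner gene Npas2 (-0.04, limma adjusted p = 0.819) was not called, and over its alternatives its value ran from -0.25 to 0.03. It turned to 0.01 after rescaling to the same sum and to 0.03 without HFHG replicate 1. The receptor gene Rora (0.09, limma adjusted p = 0.286), which was at 0.02 without LG replicate 4, was not called either.

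Under the filter, the receptor gene Rorb was between 0.0956 and 0.129 FPKM in HFHG and between 0.0786 and 0.0955 FPKM in LG. These values did not overlap, though only narrowly (exact permutation p = 0.0286), and p was 0.0571 with median-ratio scaling and without HFHG replicate 3 or any of the 4 LG libraries. The modulator Ppargc1a and the output gene Gys2 were under the filter too, and their groups overlapped (exact permutation p = 0.286 and p = 0.6).

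The further repressors differed in direction. Bhlhe40 (DEC1), which competes for E-boxes, had 44.6, 47.0, 45.0 and 48.0 FPKM in HFHG and 78.7, 75.1, 73.3 and 73.2 FPKM in LG. All 4 HFHG libraries were far below LG, with a log2 fold change of -0.70 (SE 0.03, limma adjusted p = 1.82e-09, lower in 4 of 4 HFHG libraries). Its paralogue Bhlhe41 (DEC2) had 5.47, 5.04, 5.19 and 5.45 FPKM in HFHG and 4.57, 4.74, 4.70 and 4.17 FPKM in LG. Bhlhe41 was higher in every HFHG library, with a log2 fold change of 0.22 (SE 0.06, limma adjusted p = 0.00709, higher in 4 of 4 HFHG libraries). It shares 1280 exon bases with Gm43909, annotated on the opposite strand and not in the table, so its level and its ratio to Bhlhe40 are uncertain. Bhlhe40 over Bhlhe41 was 8.73 ± 0.482 in HFHG and 16.6 ± 0.985 in LG (SD, n = 4), without overlap. Nfil3 (E4BP4), which opposes DBP and TEF at D-boxes, had 6.43, 6.91, 7.11 and 6.47 FPKM in HFHG and 7.02, 6.55, 6.47 and 7.33 FPKM in LG. The groups of Nfil3 overlapped and it was not called (log2 fold change -0.02, adjusted p = 0.742), with values of 0.04 after rescaling to the same sum and 0.01 without LG replicate 4.

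Ciart (CHRONO), a repressor that binds BMAL1, had 1.08, 0.977, 0.914 and 0.877 FPKM in HFHG and 2.02, 1.92, 1.44 and 1.82 FPKM in LG. Every HFHG library was below every LG library, and LG replicate 3 was the lowest of LG. The log2 fold change was -0.83 (SE 0.12, limma adjusted p = 4.5e-05, lower in 4 of 4 HFHG libraries), and -0.51 with a pseudocount of 1. Its promoter is printed because it holds 3 copies of the E-box, in capitals, in a gene that was lower where Per1 and Dbp were higher (chr3:95882179-95882478, minus strand, RefSeq, GRCm38.p6).
Ciart: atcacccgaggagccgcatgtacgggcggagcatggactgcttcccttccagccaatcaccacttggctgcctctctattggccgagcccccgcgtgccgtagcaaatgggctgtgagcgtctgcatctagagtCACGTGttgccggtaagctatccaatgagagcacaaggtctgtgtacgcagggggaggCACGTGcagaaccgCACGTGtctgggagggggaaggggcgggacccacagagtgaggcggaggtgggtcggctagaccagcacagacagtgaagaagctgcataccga
Among the windows of the listed activators and further repressors, 2 of 11 held the E-box, those of Ciart and Bhlhe41.

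**Figure D4:**
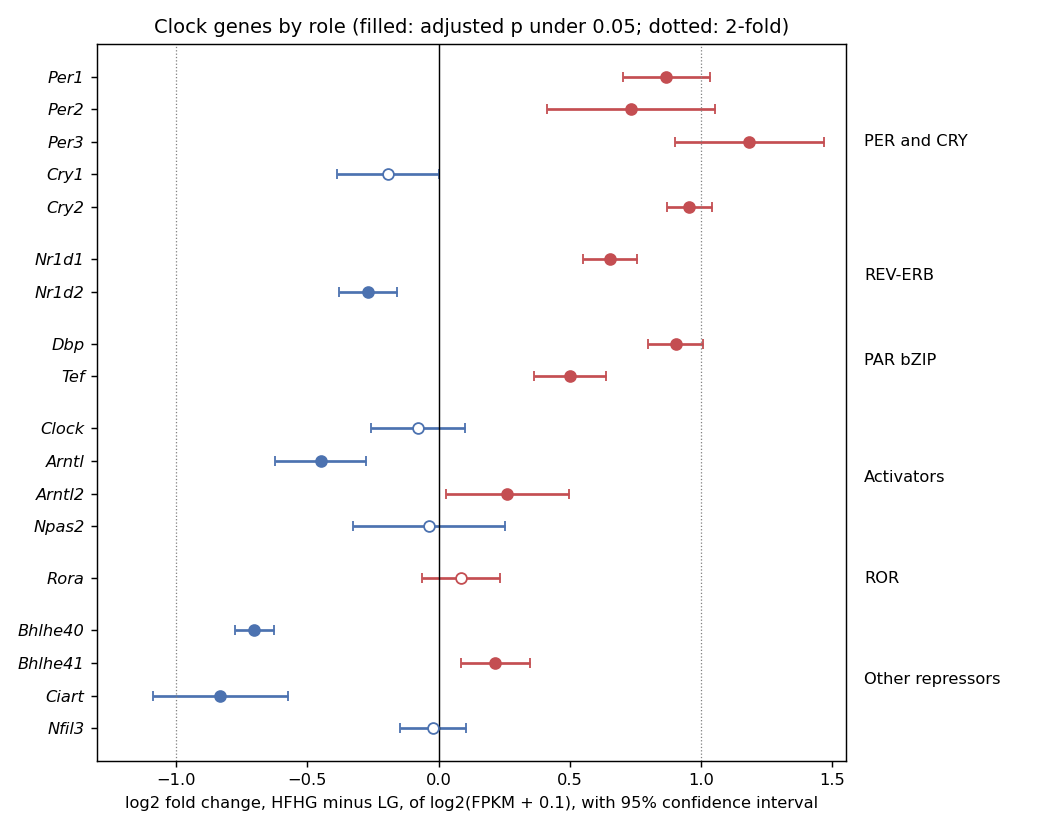
Log2 fold change, HFHG minus LG (x axis), of the 10 clock genes and 8 other tested genes of the loop by role (y axis), with bars for the 95% confidence interval, filled points for an adjusted p under 0.05 and dotted lines at a fold change of 2. Per1, Per2, Per3, Cry2, Nr1d1, Dbp and Tef lie above 0, while Nr1d2, Arntl, Bhlhe40 and Ciart lie below 0; Npas2 and Nfil3 turn sign in some alternatives.

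Among the modulators (kinases, ubiquitin ligase subunits and cofactors that act on PER, CRY or BMAL1), 19 of 20 were tested, with 7 called higher and 6 lower, beside 34% and 30.8% of all tested genes, and a median log2 fold change of 0.03. With LG replicate 4 left out, 7 were called higher and 7 lower. Nampt, the enzyme of NAD salvage and an E-box target, had 24.2, 23.0, 24.6 and 22.2 FPKM in HFHG and 43.6, 44.0, 43.1 and 42.7 FPKM in LG. It was lower in 4 of 4 HFHG libraries (log2 fold change -0.88, SE 0.04, limma adjusted p = 3.54e-10), opposite to Per1, Cry2 and Dbp. Fbxl21, a ubiquitin ligase subunit for CRY proteins, had 0.971, 1.03, 0.888 and 0.826 FPKM in HFHG and 0.452, 0.443, 0.443 and 0.650 FPKM in LG. It was higher in 4 of 4 HFHG libraries (0.79, SE 0.14, limma adjusted p = 0.000319), with LG replicate 4 above the other LG libraries, and 0.37 with a pseudocount of 1. Only 5 libraries reached 0.5 FPKM for Fbxl21, all of HFHG and LG replicate 4. It thus entered the test mainly through the group where it was high. Fbxw7, a subunit with a role in the breakdown of REV-ERB alpha, was at 3.36 ± 0.258 and 2.24 ± 0.232 FPKM (SD, n = 4) and was higher in 4 of 4 HFHG libraries (0.57, SE 0.09, limma adjusted p = 0.000104).

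Among 12 output genes that cycle in many mouse organs, 10 were tested, with 2 called higher and 5 lower and a median log2 fold change of -0.10. With LG replicate 4 left out, 1 was called higher and 5 lower, and the count called higher was also 1 without HFHG replicate 1, 2 or 3 or LG replicate 2, and 3 without LG replicate 3. After rescaling to the same sum, 3 were called higher and 3 lower. The 7 of 10 called as reported stand beside the 64.8% of all tested genes called, 34% higher and 30.8% lower. Lonrf3 had 1.95, 2.23, 1.63 and 1.99 FPKM in HFHG and 4.70, 4.95, 5.21 and 4.40 FPKM in LG, without overlap (log2 fold change -1.27, SE 0.09, limma adjusted p = 1.06e-07, lower in 4 of 4 HFHG libraries). Dtx4 had 6.73, 6.64, 6.52 and 6.29 FPKM in HFHG and 13.0, 12.4, 12.1 and 12.2 FPKM in LG, also without overlap (-0.91, SE 0.04, limma adjusted p = 1.95e-09, lower in 4 of 4 HFHG libraries). Tspan4 was lower by less, at 62.0 ± 1.0 and 71.9 ± 3.29 FPKM (-0.21, SE 0.03, limma adjusted p = 9.65e-05, lower in 4 of 4 HFHG libraries). Wee1, a cell cycle kinase known as an E-box target, overlapped between the groups, and its call (0.25, SE 0.10, limma adjusted p = 0.0373, 3 of 4 HFHG libraries above every LG library) was kept in 11 of 18 alternatives, with an adjusted p from 0.0118 to 0.144 and a value of 0.18 without LG replicate 4.

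Per1 and Per2 are also induced by glucocorticoid and by signals that act through CREB or serum response factors, so targets of these routes were read beside them. Of 12 glucocorticoid targets 11 were tested, with 5 called higher and 4 lower and a median log2 fold change of 0.12. Over all tested genes 64.8% were called, 34% higher and 30.8% lower, for this list and the next. Of the 3 targets farthest from 0, Mt1 fell from 1179 ± 74.4 to 575 ± 8.07 FPKM (log2 fold change -1.03, limma adjusted p = 9.23e-11), Mt2 from 3001 ± 128 to 1551 ± 49.2 FPKM (-0.95, 5.45e-11), and Nfkbia rose from 46.4 ± 1.61 to 89.3 ± 1.61 FPKM (0.94, 3.65e-11), each in 4 of 4 HFHG libraries. Of 10 CREB and serum targets all were tested, with 4 called higher and 5 lower and a median of -0.11. Fosb (0.78, limma adjusted p = 0.000198) and Nr4a2 (0.43, 0.00456) were higher in 4 of 4 HFHG libraries, and 0.42 and 0.27 with a pseudocount of 1, and Atf3 (-0.76, 8.37e-08) was lower in 4 of 4.

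**Figure D5:**
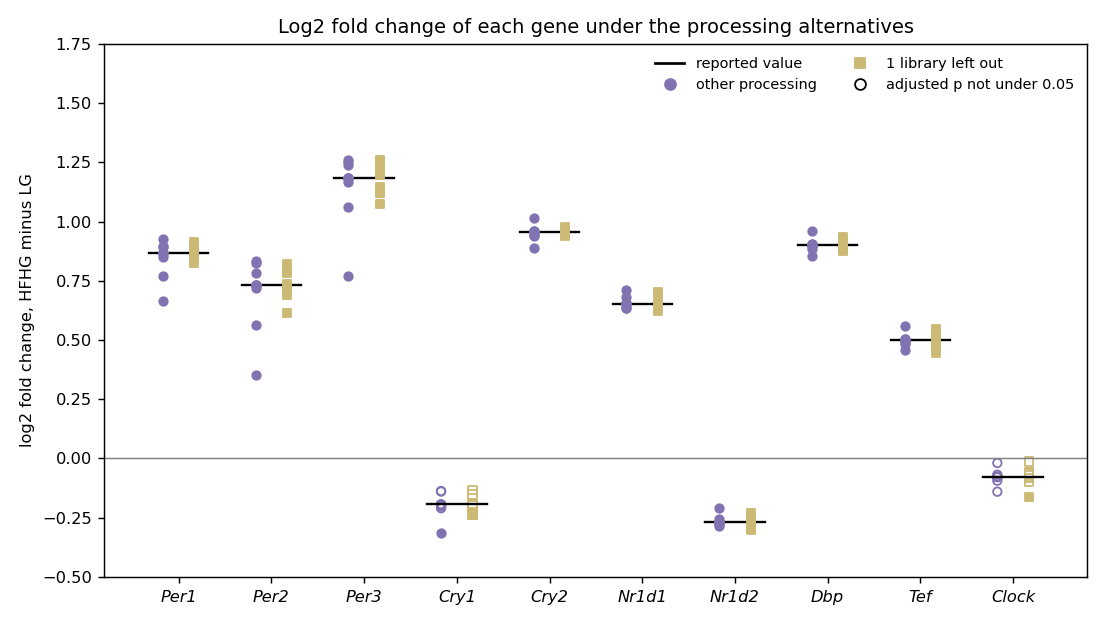
Log2 fold change, HFHG minus LG (y axis), of each of the 10 clock genes (x axis) as reported (line), under other processing (circles) and with 1 library left out (squares), with open symbols where the adjusted p was not under 0.05. No gene changes sign, Per2 and Per3 move most (to 0.35 and 0.77 with a pseudocount of 1), and only Cry1 and Clock have both open and filled symbols.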

How the data were processed

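Sequenced mRNA came from 8 samples of mouse TSCs, 4 in HFHG medium (25.5 mM glucose, 300 µM palmitic acid) and 4 in LG medium (5.5 mM glucose, DMSO), for 4 days. The authors deposited FPKM for 19301 genes, and 0 columns of per-sample values were left unused. HISAT2 2.1.0 and the build mm10 come from the submitters' processing notes, and the counting program, its strand setting, the annotation and filters are not given in the sources used here. Genes with at least 0.5 FPKM in at least 4 libraries were tested with limma 3.58.1 (R 4.3.3, lmFit and eBayes with an intensity trend) on log2(FPKM + 0.1), HFHG minus LG, with Benjamini-Hochberg adjustment over all tested genes and a threshold of 0.05. Genes under the filter got an exact two-sided permutation test of mean FPKM over 70 arrangements. Whole reads behind the FPKM were recovered for 19301 of 19301 genes (100%), within 1e-06 of a read plus 1e-09 of the number, and gave the depth of each library and gene. Other steps used Python 3.11.15.

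Named genes were the 10 clock genes, the listed activators and further repressors, the 3 modulators and 4 outputs with log2 fold changes farthest from 0 among those called, the 3 such genes of the glucocorticoid and of the CREB and serum lists, and the 5 genes nearest to the member farthest from 0. Lists of tendon, mesenchymal stromal, macrophage, endothelial, skeletal muscle, adipocyte, cartilage and bone markers were read as summed FPKM. The members and lists were chosen with earlier results of these data known. Positions come from GENCODE M21 (GRCm38) and promoters from RefSeq (GRCm38.p6). Alternatives tried were leaving out each library in turn, voom on the recovered reads, robust eBayes, a block for the replicate number, quantile normalization, scaling by median ratios or to an equal sum, a minimum of 1 FPKM or none, and pseudocounts of 0.01 and 1. Those for genes under the filter and for the counts of single lists were chosen after seeing the data.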

Additional observations from a re-analysis of the deposited data

Results flagged for a closer look

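In 78 groups of 4 libraries looked at among the named genes, 4 held a library far from the other 3 of its group, and 3 of the 4 were LG replicate 4. Chance marks about 1 in 20 groups. Tef was at 7.75 FPKM in LG replicate 4, against 8.92 to 9.10 FPKM in the other LG libraries. Fbxl21 was at 0.650 FPKM in LG replicate 4, against 0.443 to 0.452 FPKM. Mt1 was at 1290 FPKM in LG replicate 4, against 1130 to 1156 FPKM. Wee1 was at 3.29 FPKM in HFHG replicate 4, against 3.93 to 4.04 FPKM in the other HFHG libraries.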

How the results depend on the processing

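The number of all tested genes called was between 7177 and 7839 over the alternatives, and 7 to 9 of the 10 clock genes were called. Of 179 values of the 10 clock genes, 176 kept their direction and their side of the threshold and 3 came to pass it. The count of clock genes called lower was 2 with quantile normalization and 1 to 2 with 1 library left out, against 1 as reported. With a minimum of 1 FPKM, 7 were called because Per2 was not tested. Of the listed clock genes under the filter, 2 (Hlf and Rorb) passed the exact test as reported, 1 passed with median-ratio scaling and 0 to 2 passed with 1 library left out. The groups of Hlf and Rorb did not overlap with any library left out, where only 35 arrangements remain. Over all 36 tested named genes, 618 of 644 values kept direction and side, 19 no longer passed (Arntl2 and Wee1), 3 came to pass, and 4 turned sign. After rescaling to the same sum Npas2 turned to 0.0136 and Nfil3 to 0.0356. With 1 library left out, Npas2 was between -0.0909 and 0.0318 (above 0 without HFHG replicate 1) and Nfil3 between -0.0493 and 0.0104 (above 0 without LG replicate 4). The difference of mean FPKM of Gys2, with at most 5 reads in a library, was -0.00321 with all 8 libraries and between -0.0104 and 0.00703 with 1 library left out, above 0 without HFHG replicate 2 or LG replicate 1. The cause was not tested.

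Libraries of the same replicate number were not closer than others: correlations of their deviations were -0.0736 to -0.00558, and 0 of the 4 HFHG libraries had its highest correlation with its own number. With the replicate number as a block, 7342 genes, 8 of the 10 clock genes and 24 of the other clock genes were called. All values of Rorb, Ppargc1a and Gys2 and some values of Hlf, Per2, Ciart and Npas2 rested on under about 100 reads. So did some values of Fbxl21, Fosb, Mogat2, Cish and 9930111J21Rik1. At this depth counting error adds to the spread. Its share of the spread of these genes was not tested. A single harvest gives no phase, the treatment joins 2 agents, and FPKM are relative to the library total, so a change of total RNA per cell was not measured.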
